A study of Saccharomyces cerevisiae with 2 samples.

Results

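The telomerase and telomere capping genes of the budding yeast Saccharomyces cerevisiae are described here as 8 genes out of 6002 nuclear protein-coding genes. EST1, EST2 and EST3 encode protein subunits of telomerase, CDC13, STN1 and TEN1 encode the complex that caps chromosome ends, and RIF1 and RIF2 encode telomere length regulators. They were named one by one and found by symbol in the R64 gene table, and all 8 were present. For each gene, hypersensitive sites (DHS), where nuclear DNA is open to cutting by DNase I, were read in the 1 kb upstream of the coding start, in the coding region and in the 500 bp after the coding end. Footprints, short stretches inside a DHS that were cut less than their surroundings, were counted by midpoint in the same windows. The 8 genes were chosen by their role at telomeres and with the length of promoter DHS and the number of footprints at EST2 in these libraries already known, so the difference at EST2 between the strains is given as a description.

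There were 2 libraries. The G170D library came from a BY4741 strain with the temperature-sensitive Hsp90 allele G170D, and the WT library from BY4741 labelled as wild type. Both strains were cultured in YPD at 37 °C for 6 h, G170D from an OD of 0.37 and WT from an OD of 0.25, to a final OD of 0.65 to 0.7, after which nuclei were isolated and lightly digested with DNase I. With 1 library per strain there is no replicate error and no test, and strain, culture, starting density and library cannot be told apart. The deposited lists held 2875 DHS and 33585 footprints in G170D and 3155 DHS and 45019 footprints in WT, and the number of reads behind them is unknown. A region absent from a list was not called there, and its signal may lie just under the authors' threshold. The lists do not show which Hsp90 gene carries the allele. BY4741 is known to lack or carry deletions in HIS3, LEU2, MET17 and URA3, and these were read as a check of the strain background. HIS3 and URA3 held no DHS in their coding regions in either strain, which was the case for 50.1% of all genes. MET17 held 67 bp in G170D and 90 bp in WT, and LEU2 was covered over all of its 1095 bp in both. Signal at MET17 and LEU2 was unexpected from the labelled background, and its source was not tested.

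Telomerase adds short repeats to chromosome ends by copying an RNA template, TLC1, with the reverse transcriptase Est2. Est1 brings the enzyme to the end by binding Cdc13, and Est3 is a small further subunit. Cdc13, Stn1 and Ten1 sit on the single-stranded overhang, protect it from degradation and control its filling-in, while Rif1 and Rif2 are held at telomeres by the repeat-binding protein Rap1 and restrain telomerase. Earlier work in yeast has linked Hsp90 to the activity of telomerase and to the exchange of partners by Cdc13. DHS report on access to the DNA of these genes, not on telomeres or on transcript levels.

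Of the 8 genes, 5 had a DHS in the upstream window in G170D and 4 had one in WT. EST3, TEN1, RIF1 and RIF2 were touched in both strains, a class that held 30.7% of all 6002 genes. EST2 was touched in G170D only (background 5.31% of genes), none of the 8 in WT only (background 7.21%), and EST1, CDC13 and STN1 in neither (background 56.8%). In all, 36.0% of genes had an upstream DHS in G170D and 37.9% in WT. DHS covered 44.0% of the upstream length of the 8 genes in G170D and 42.8% in WT, against 16.2% and 18.7% over all genes in G170D and WT. The median upstream coverage was 330 bp per gene in G170D and 253 bp in WT for the 8 genes, and 0 bp in both strains over all genes. EST2 alone had more upstream DHS length in G170D (518 bp, against 0 bp in WT), and this was known when the genes were chosen. EST3 and RIF1 had more in WT. The higher total and median in G170D thus rest on EST2 and are no result about the 8 genes. The telomere genes thus split into 3 with no upstream DHS at all and a group in which 2 windows, those of TEN1 and RIF2, were covered completely in both strains. Complete coverage in both strains was found for 135 of the 6002 genes, or 2.25%.

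In coding regions, 5 of the 8 genes had a DHS in both strains (EST2, EST3, TEN1, RIF1 and RIF2, background 35.2%), 1 in WT only (EST1, background 9.68%) and 2 in neither (CDC13 and STN1, background 50.1%). The share of all genes with a DHS in the coding region was 40.2% in G170D and 44.9% in WT. DHS covered 23.1% of the coding length of the 8 genes in G170D and 27.0% in WT, against 9.94% and 12.8% over all genes in G170D and WT. After the coding end, EST2, RIF1 and RIF2 had a DHS in both strains (background 34.5%), 0 of the 8 in G170D only (background 4.73%), EST3 and TEN1 in WT only (background 8.68%), and EST1, CDC13 and STN1 in neither (background 52.1%). The share of all genes with a DHS there was 39.3% in G170D and 43.2% in WT.

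**Figure D1:**
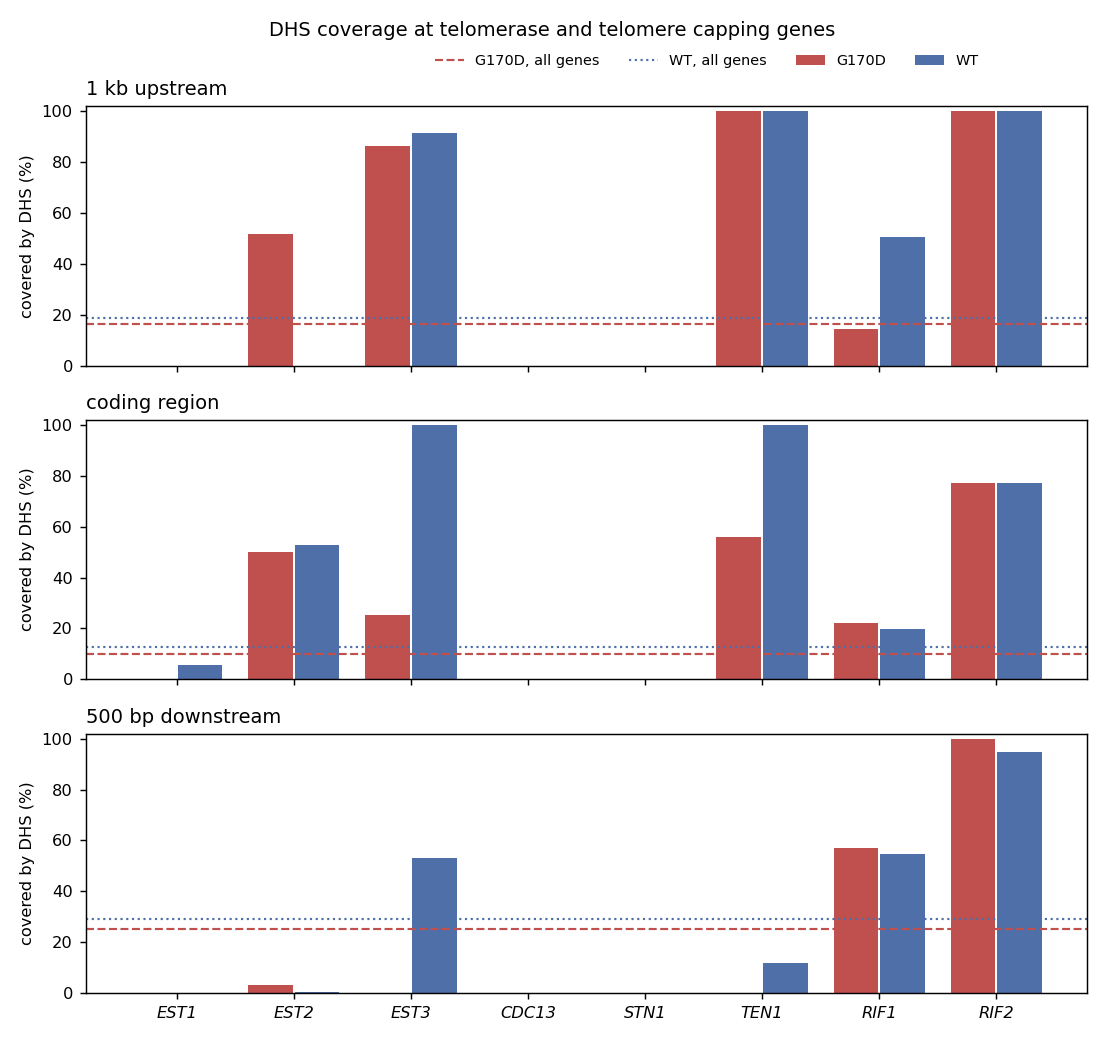
Share of the 1 kb upstream window, the coding region and the 500 bp downstream window covered by DHS, in percent, for each of the 8 genes in G170D (red) and WT (blue), 1 library each. Dashed and dotted lines give the share over all 6002 genes, and EST2 has 51.8% upstream coverage in G170D against 0% in WT.

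EST2 (YLR318W, XII:766542-769196, plus strand, sacCer3) encodes the telomerase reverse transcriptase. Its upstream window held 518 bp of DHS and 12 footprints in G170D, and 0 bp and 0 footprints in WT. The G170D DHS was 732 bp wide (XII:766024-766755). It began 518 bp before the coding start and ended at base 214 of the coding region, so it spanned the whole start of the gene. By the authors' score it took place 999 of 2875 in the G170D list. Among the 508 G170D DHS that overlapped no WT DHS it took place 27 by score. Of all genes, 26 (0.433%) had at least as much upstream DHS in G170D with none in WT. The EST2 difference was known when the genes were chosen, so these places describe it and are no measure of support.

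EST2 shares this stretch with TAD3, which encodes a subunit of the enzyme that deaminates adenosine in tRNA. The genes are transcribed away from each other across a gap of 183 bp. In G170D the DHS covered all 183 bp of the gap and 335 bp of the TAD3 gene, and 4 of the 12 upstream footprints lay in the gap. In WT the TAD3 gene held 0 bp of DHS. The G170D site therefore covered the starts of both genes, and the lists do not assign it to one of them. The strongest of its 16 footprints lay inside the EST2 coding region, 19 bp wide and centred on base 104, in the top 6.32% of the G170D footprint list. The strongest upstream footprint was 24 bp wide, lay 395.5 bp before the coding start within TAD3, and was in the top 9.83%.

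The whole EST2 coding region held 1325 bp of DHS and 22 footprints in G170D, against 1402 bp and 23 footprints in WT. The site over the coding start gave 214 bp and 4 footprints of the G170D values. The rest of the coding region held 1111 bp and 18 footprints in G170D, against 1402 bp and 23 footprints in WT. In WT this was a single DHS of 1403 bp (XII:767795-769197) over the 3' part of the gene, from coding base 1254 to 1 bp after the coding end. In G170D the same stretch carried a DHS of 879 bp (XII:767794-768672) and a further one of 196 bp at the end of the gene (XII:769016-769211). A separate G170D site of 51 bp with 1 footprint (XII:767333-767383) overlapped no WT DHS. The outer edges of the WT site and of the 879-bp site differed by 1 bp on the 5' side. Of the footprints in length covered by both strains, 7 of 17 in G170D and 7 of 15 in WT overlapped one of the other strain. The strongest of these shared footprints was centred on coding base 1663 in G170D, 25 bp wide and in the top 12.9% of its list, and on base 1665.5 in WT, 24 bp wide and in the top 14.0%.

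EST1 (YLR233C, XII:607425-609524, minus strand), whose product recruits telomerase, had 0 bp of DHS in its upstream window in both strains. The coding region held 0 bp in G170D and 116 bp with 1 footprint in WT. That WT site (XII:608414-608529) took place 2991 of 3155 by score, near the end of the list, and overlapped no G170D DHS. A coding-region DHS in WT only was found for 9.68% of all genes. The upstream window of EST1 also takes in the start of TOP3, a topoisomerase gene that begins 258 bp away on the other strand, and that start was likewise without a DHS.

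EST3 (YIL009C-A, IX:335666-336212, minus strand) encodes a small telomerase subunit whose mRNA is read through a programmed ribosomal frameshift. Its upstream window held 863 bp of DHS and 15 footprints in G170D, against 916 bp and 24 footprints in WT. The coding region held 139 bp and 2 footprints in G170D, and all 547 bp with 9 footprints in WT. The downstream window held 0 bp in G170D and 265 bp with 6 footprints in WT. Each strain had a single DHS here, of 1002 bp in G170D (IX:336074-337075) and 1728 bp in WT (IX:335401-337128). The upstream edge of the WT site lay 53 bp beyond that of G170D, and its edge on the coding side lay 673 bp beyond.

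The WT site at EST3 ran through the entire gene and 129 bp into the end of DOT5, a thiol peroxidase gene on the other strand, which held 0 bp of DHS in G170D. The G170D site ended at coding base 139. A large edge shift of this kind was uncommon among DHS of the 2 lists. Of 1855 DHS pairs in which 1 site of each strain overlapped only the other, the median absolute difference of an edge was 56 bp, and 0.943% of the 3710 edges in WT reached 673 bp or more beyond G170D. The median edge in WT lay 30 bp beyond the edge in G170D. A coding-region coverage that was greater in WT by at least the amount seen at EST3 was found for 227 genes (3.78%).

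**Figure D2:**
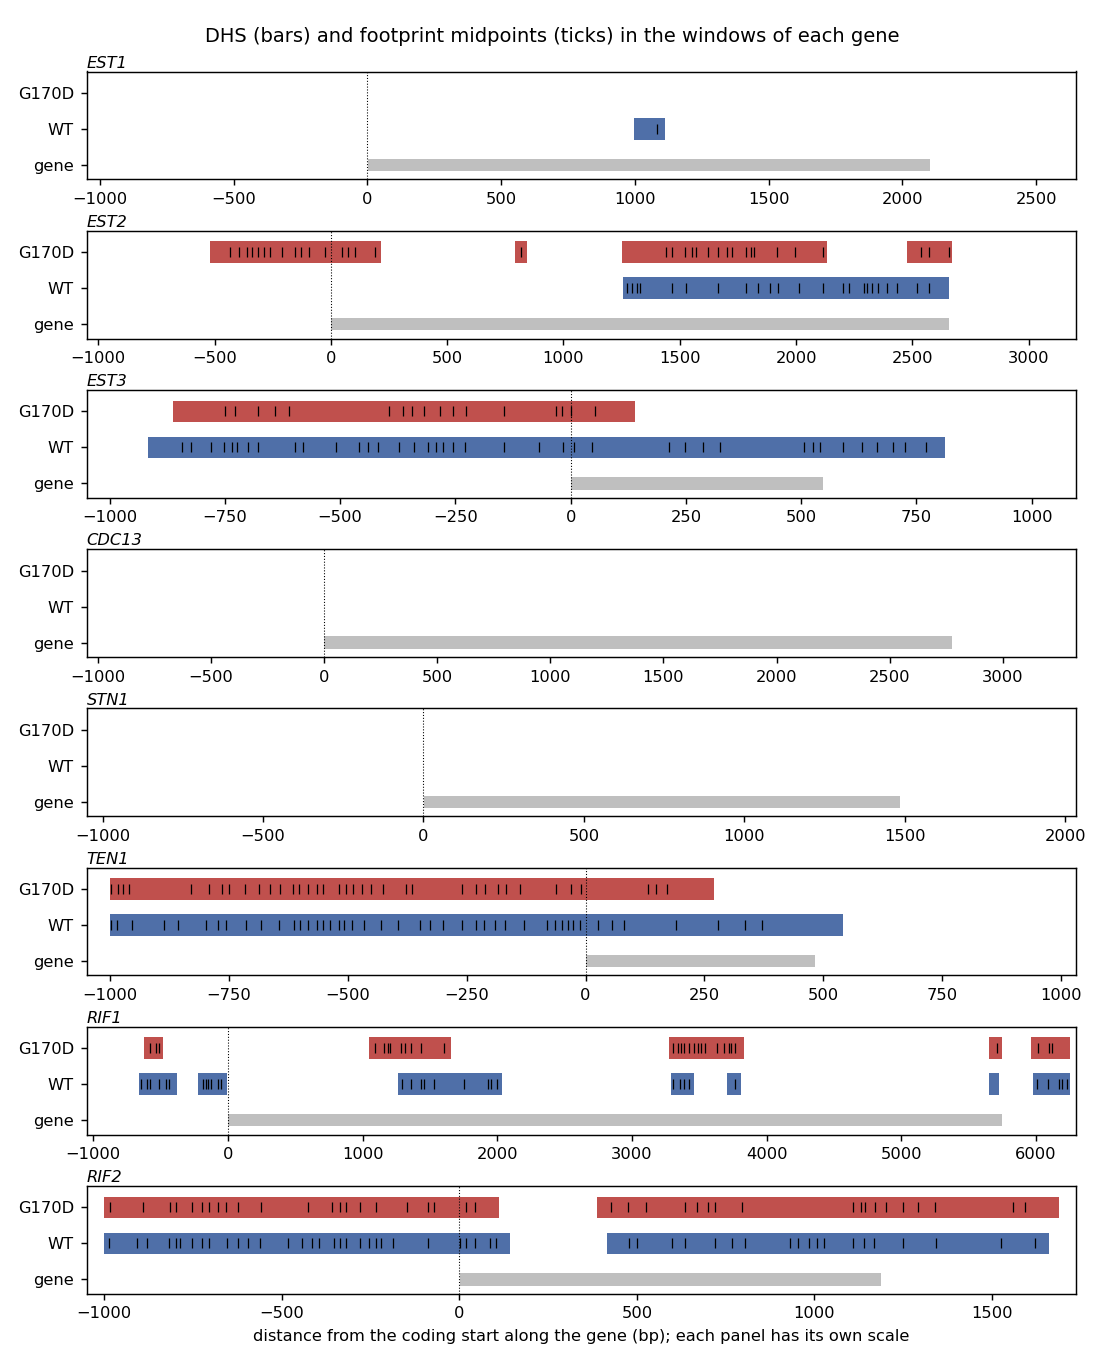
DHS (bars, G170D red above WT blue) and footprint midpoints (ticks) along each gene, with the coding region in grey and distance from the coding start in bp. Bars are cut at the ends of the windows, and the WT sites at EST3 and TEN1 reach 673 and 271 bp further into and past the gene than the G170D sites.

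CDC13 (YDL220C, IV:62244-65018, minus strand), which encodes the protein that binds the single-stranded overhang, had no DHS and no footprint in any window in either strain. STN1 (YDR082W, IV:610441-611925, plus strand), its partner in capping, likewise had none. No DHS in any of the 3 windows in either strain was the case for 30.2% of all genes. Their upstream windows run into divergent neighbours, DTD1 at 223 bp from CDC13 and PDC2 at 359 bp from STN1. The lists thus give no accessible site from which a difference between the strains at these 2 genes could be read.

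TEN1 (YLR010C, XII:167320-167802, minus strand), the third gene of the capping complex, stood apart from CDC13 and STN1 with the strongest DHS of the 8 genes. The upstream window was covered over all 1000 bp in both strains, with 34 footprints in G170D and 38 in WT. The coding region held 271 bp and 3 footprints in G170D, and all 483 bp with 7 footprints in WT. The downstream window held 0 bp in G170D and 59 bp in WT. The site was 1666 bp wide in G170D (XII:167532-169197) and 1912 bp in WT (XII:167261-169172). By score it took place 109 of 2875 in G170D and 82 of 3155 in WT. Its far edge differed by 25 bp between the strains, with G170D reaching further, and its edge on the coding side reached 271 bp further in WT. An edge in WT at least that far beyond G170D was found for 9.46% of edges of the paired DHS.

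EST3 and TEN1 have in common a tRNA gene just upstream. At EST3 the tRNA gene YNCI0010C (IX:336349-336420) lies from 208 to 137 bp before the coding start and was covered over all 72 bp in both strains. At TEN1 the tRNA gene YNCL0002C (XII:167944-168025) lies from 223 to 142 bp before the coding start and was covered over all 82 bp in both strains. Both tRNA genes lie on the same strand as their neighbour. A tRNA gene lay in the upstream window of 262 of the 6002 genes, and 88.2% of these had an upstream DHS in G170D (exact 95% interval 83.6 to 91.8) and 94.3% in WT (90.7 to 96.8). Among the 5740 genes without one the shares were 33.6% in G170D (32.4 to 34.9) and 35.3% in WT (34.1 to 36.6). These intervals cover counting error only and treat genes as independent, although neighbours can share a DHS. The part of the tRNA genes in the coverage of EST3 and TEN1 was not tested.

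Footprints at the 2 tRNA genes recurred between the strains. YNCI0010C held 1 footprint midpoint in each strain, 30 bp wide in both, and these shared 28 bp. YNCL0002C held 3 in each strain, and each overlapped a footprint of the other strain. The strongest footprints near TEN1 lay further out, between the tRNA gene and LOT6, a quinone reductase gene that starts 1301 bp away on the other strand. One was centred 717 bp before the TEN1 coding start in G170D, 17 bp wide, at place 606 of the G170D footprint list, and 714.5 bp before it in WT, 22 bp wide, at place 461. Another was centred 792.5 bp before the start in G170D (26 bp wide, place 996) and 798 bp before it in WT (29 bp wide, place 380). Of the TEN1 footprints, 8 of 37 in G170D and 18 of 45 in WT were in the strongest 10% of their lists. Of the footprints in length covered by both strains, 29 of 37 in G170D and 29 of 42 in WT overlapped one of the other strain. Positions in a list are ranks within that list, and lists of different length cannot be compared place by place.

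RIF1 (YBR275C, II:751356-757106, minus strand) encodes a Rap1-bound regulator of telomere length that also acts in replication timing. Its upstream window held 142 bp of DHS and 3 footprints in G170D, against 506 bp and 12 footprints in WT. WT had 2 upstream DHS and G170D had 1. The WT site next to the gene was 218 bp wide (II:757114-757331), lay from 225 to 8 bp before the coding start, and overlapped no G170D DHS. It held 6 footprints, the strongest of them 29 bp wide, centred 186 bp before the coding start and in the top 5.20% of the WT list. The site itself took place 2635 of 3155 by score, and 538 of 892 among WT DHS with no G170D counterpart. With upstream windows of 300 bp, RIF1 was touched in WT only, at 72.7% of the window against 0% in G170D.

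The other RIF1 upstream site lay at the end of PPS1, a phosphatase gene 513 bp upstream on the same strand, and was found in both strains. It spanned 142 bp in G170D (II:757592-757733) and 288 bp in WT (II:757483-757770), and held 3 footprints in G170D and 6 in WT. A 28-bp footprint in G170D and a 29-bp footprint in WT there shared 27 bp, centred 578.5 and 580 bp before the RIF1 coding start in G170D and WT. Inside the coding region the order of the strains turned round. The coding region held 1266 bp and 24 footprints in G170D, against 1126 bp and 14 footprints in WT. RIF1 was the only one of the 8 with more DHS length in the coding region in G170D, a class with 13.7% of all genes, and the only one with more footprints there, with 11.0% of all genes.

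The excess of DHS length in G170D inside RIF1 lay mainly in one stretch. G170D had a DHS of 561 bp with 14 footprints (II:753273-753833), and WT had 2 shorter DHS of 107 and 173 bp in its place, with 1 and 4 footprints. By score the G170D site took place 1332 of 2875. The WT sites took places 2405 and 3099 of 3155, the latter near the end of the list. A second internal site was 610 bp wide in G170D (II:755448-756057) and 772 bp in WT (II:755071-755842), with 9 footprints in each strain, and the strains shared 395 bp of it. Near the end of the gene, a DHS of 95 bp in G170D and 74 bp in WT was followed by one over the end of CHK1, a checkpoint kinase gene, of 292 bp in G170D and 409 bp in WT. The downstream window held 286 bp and 3 footprints in G170D and 274 bp and 5 footprints in WT.

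RIF2 (YLR453C, XII:1041799-1042986, minus strand), the other Rap1-bound regulator, had close DHS lengths in the 2 strains in every window. The upstream window was covered over all 1000 bp in both, with 20 footprints in G170D and 26 in WT. The coding region held 915 bp of DHS in each strain, with 14 footprints in G170D and 20 in WT. The downstream window held 500 bp and 6 footprints in G170D, against 473 bp and 4 footprints in WT. The upstream site was 2866 bp wide in G170D (XII:1042874-1045739) and 2951 bp in WT (XII:1042845-1045795), and every base of the G170D site lay inside the WT site. It filled the 1011 bp between RIF2 and FMP27, which is transcribed the other way, and ran over 1742 bp of FMP27 in G170D and 1798 bp in WT. By score it took place 620 of 2875 in G170D and 382 of 3155 in WT.

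The downstream RIF2 site was the one case among the paired DHS of the 8 genes in which the edge beyond the gene reached over 300 bp further in G170D. It was 1598 bp wide in G170D (XII:1041003-1042600) and 1246 bp in WT (XII:1041326-1042571). The G170D edge lay 323 bp further into SST2, which encodes a regulator of pheromone signalling. Of the edges of the paired DHS in the lists, 97.8% were shifted toward G170D by this much or less, or toward WT. The strongest upstream footprint of RIF2 had the same borders in both strains (XII:1043726-1043754), 29 bp wide and centred 754 bp before the coding start. It was in the top 4.39% of the G170D list and the top 2.25% of the WT list. Of 40 RIF2 footprints in G170D and 50 in WT, 19 of each had a midpoint within 2 bp of one in the other strain, the largest number among the 8 genes. RIF2 also had the most footprints in length covered by both strains. The share of the whole lists within 2 bp was not computed, so the number is a description only.

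**Figure D3:**
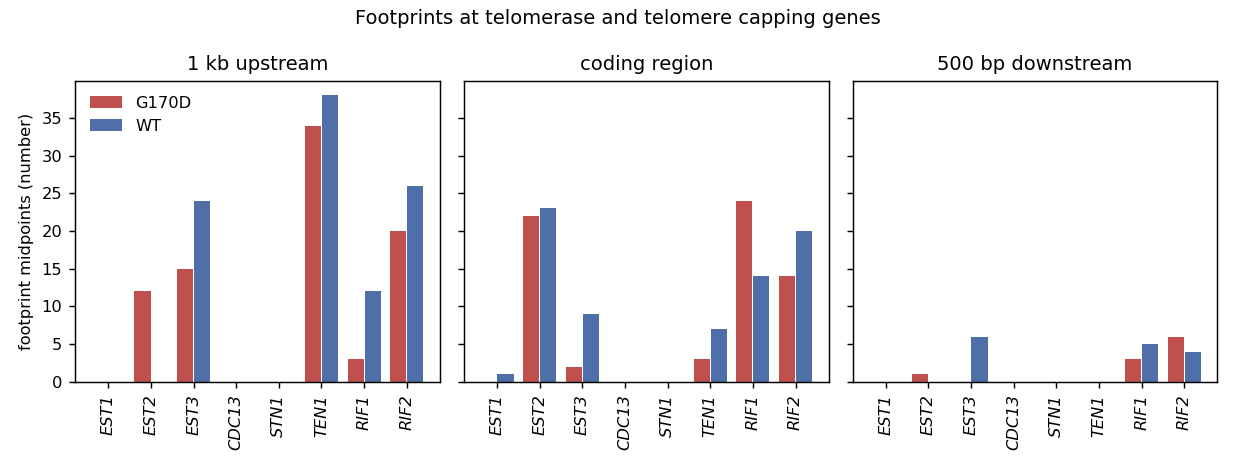
Number of footprint midpoints in the upstream, coding and downstream windows of each gene in G170D (red) and WT (blue). EST2 upstream has 12 in G170D and 0 in WT, and the RIF1 coding region has 24 in G170D and 14 in WT.

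Over the 8 genes together, upstream windows held 84 footprints in G170D and 100 in WT, coding regions 65 in G170D and 74 in WT, and downstream windows 10 in G170D and 15 in WT. More upstream footprints were listed in G170D for EST2 alone (background 11.2% of genes), and in WT for EST3, TEN1, RIF1 and RIF2 (background 27.0%). More upstream DHS length was listed in G170D for EST2 (background 13.7%) and in WT for EST3 and RIF1 (background 26.7%). In coding regions, EST1, EST2, EST3 and TEN1 had more DHS length in WT (background 33.1%). Per kb of DHS, the upstream windows of the 8 genes held 23.8 footprints in G170D and 29.2 in WT, against 19.3 and 21.4 over all genes in G170D and WT. All footprints of both lists had their midpoint in a DHS of the same strain, so a window with no DHS could hold none.

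Recurrence of footprints was set beside that of the lists as a whole. Where DHS of both strains covered the position, 88 of 131 G170D footprints at the 8 genes (67.2%, exact 95% interval 58.4 to 75.1) overlapped a WT footprint by at least 1 bp, against 72.7% of all G170D footprints in such length. In the other direction 91 of 151 WT footprints (60.3%, 52.0 to 68.1) overlapped a G170D footprint, against 61.2% of all. Shares of the whole list lay inside both intervals, which cover counting error only. Over all footprints at the 8 genes, including those where DHS were listed in 1 strain, 88 of 159 in G170D (55.3%, 47.3 to 63.2) overlapped one of the other strain, against 64.6% of the list. In WT these were 91 of 189 (48.1%, 40.8 to 55.5), against 48.8% of the list. EST2 gave 35 of the 159 G170D footprints, and 7 of the 35 overlapped one in WT. Its promoter DHS and footprint number were known when the genes were chosen. The lower G170D share is therefore not read as a trait of the 8 genes. At TEN1 and RIF2, with complete upstream coverage in both strains, the single strongest footprint of each strain overlapped one of the other strain. A weaker RIF2 footprint in WT, in the top 8.78% of its list, overlapped none in G170D. At EST2 upstream and at the RIF1 site next to the gene no comparison was possible since a DHS was listed in 1 strain.

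**Figure D4:**
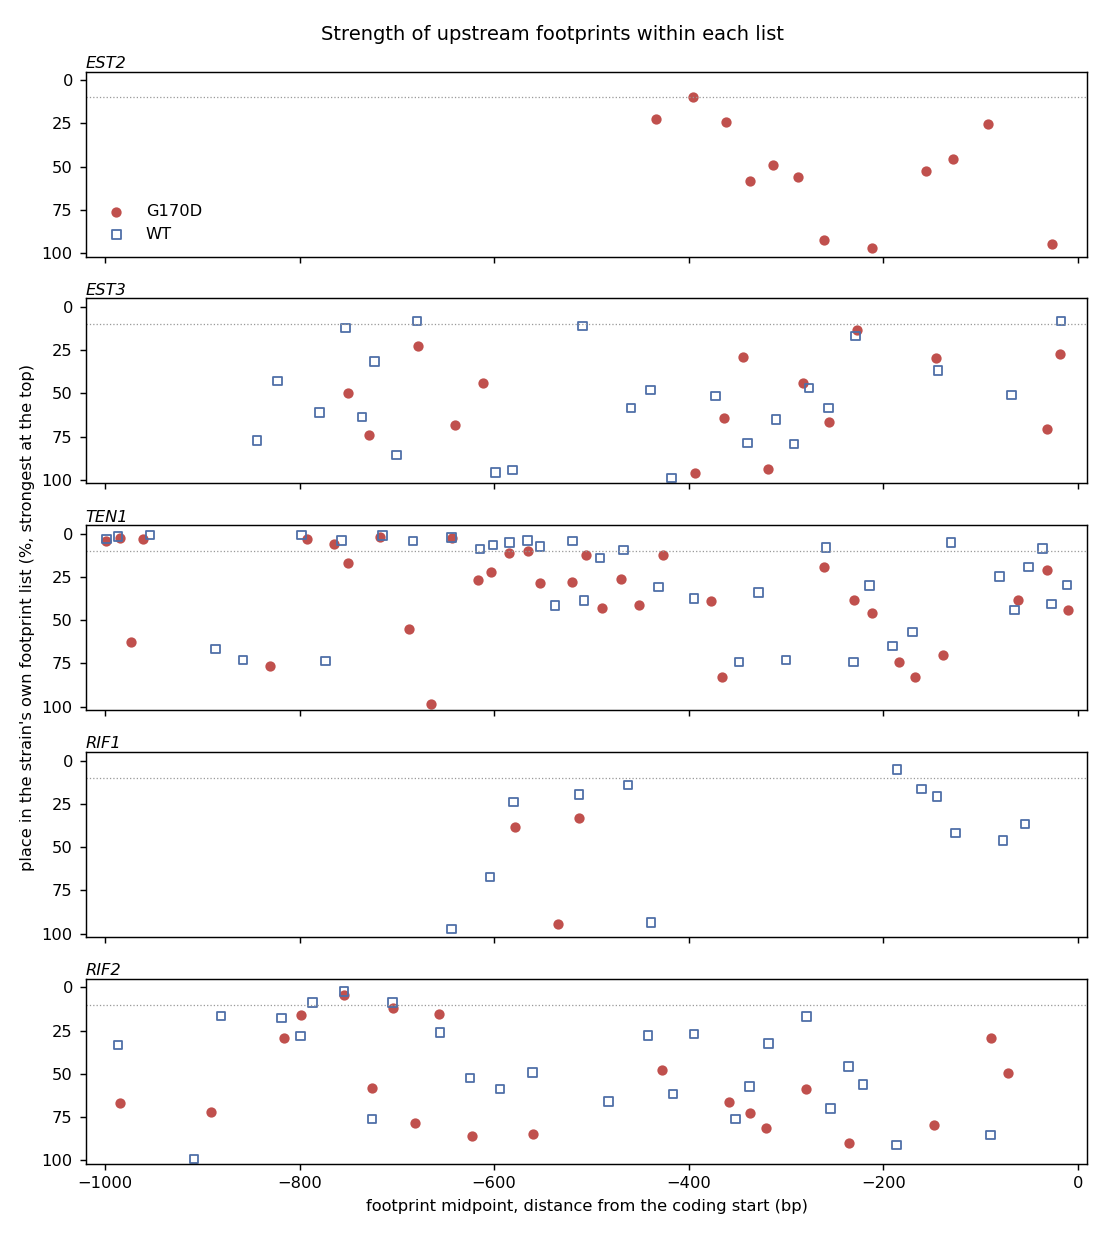
Upstream footprints of the 5 genes with an upstream DHS, by distance of the midpoint from the coding start (bp) and by place in the strain's own list in percent (strongest at the top, dotted line at 10%), G170D as filled circles and WT as open squares. TEN1 has its strongest footprint 717 bp upstream in G170D and 798 bp upstream in WT, and RIF2 has a footprint at 754 bp in both.

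Other genes that act at telomeres were read in the same upstream window, 29 genes in 4 lists. Over all genes, the shares given above were 30.7% (both), 5.31% (G170D only), 7.21% (WT only) and 56.8% (neither). Of the 29 genes, 6 had an upstream DHS in both strains, 3 in G170D only, 1 in WT only and 19 in neither. Their median upstream DHS length was 0 bp in both strains, as over all genes, and their mean was 140 bp in G170D and 158 bp in WT, against 162 bp and 187 bp over all genes in G170D and WT. The telomerase RNA gene TLC1 (II:307587-308887) had 0 bp upstream in both strains, and 248 bp in G170D and 209 bp in WT in its transcribed region.

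The 3 genes of these lists with an upstream DHS in G170D only were PIF1, POP1 and RAD9. PIF1, a helicase that removes telomerase from chromosome ends, held 333 bp and 6 footprints in G170D and 0 bp in WT. POP1, which encodes an RNase P subunit that also belongs to telomerase, held 214 bp and 4 footprints in G170D and 0 bp in WT. RAD9, a checkpoint adaptor, held 187 bp and 3 footprints in G170D and 0 bp in WT. POP6, another RNase P subunit shared with telomerase, was the gene with an upstream DHS in WT only, with 0 bp in G170D and 169 bp without a footprint in WT.

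The 4 lists stand beside 30.7% (both), 5.31% (G170D only) and 56.8% (neither) of all genes, and no trait is read from their counts. Silencing and Ku genes had 2 of 6 with an upstream DHS in both strains and 4 in neither. YKU70, a subunit of the Ku end-binding complex, was covered over all 1000 bp in both strains, with 39 footprints in G170D and 38 in WT, and YKU80, its partner, over 942 bp in G170D and 1000 bp in WT. RAP1, SIR2, SIR3 and SIR4 had 0 bp upstream in both. Of 10 checkpoint and resection genes, 2 were touched in both strains, 1 in G170D only and 7 in neither. The kinase gene TEL1 held 232 bp in G170D and 549 bp in WT, and XRS2, of the Mre11 complex, 596 bp in G170D and 761 bp in WT. Of 7 genes for lagging-strand synthesis and the single-strand binding complex RPA, RFA1 alone had an upstream DHS, of 12 bp in G170D and 105 bp in WT. POP7, a further RNase P and telomerase subunit, held 557 bp in G170D and 1000 bp in WT.

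For the 6 telomere genes with at least 1 bp of DHS in a window, the nuclear protein-coding genes with the most similar coverage were found by Euclidean distance over 6 values, the covered shares of the 3 windows in the 2 strains. TEN1 was nearest to CBC2 (distance 0.124) and SEI1 (0.269), RIF1 to HIR1 (0.171) and UBP1 (0.183), and RIF2 to SMP3 (0.201) and SVP26 (0.253). EST3 was nearest to YNK1 (0.304) and GRX5 (0.306). EST2 was nearest to YPL071C (0.260) and RNA14 (0.260). RNA14 resembled EST2 in having 492 bp upstream in G170D and 0 bp in WT, while YPL071C held 302 bp in G170D and 66 bp in WT. EST1, with 1 short WT site, was nearest to APL6 (0.000917) and RAD54 (0.0026), which likewise held only a short WT site in the coding region.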

How the data were processed

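Per the labels' protocols, nuclei were treated with limited DNase I, fragments were size-selected (called short and also above 650 bp), and sequencing used 2 lanes and 101 cycles. Per the submitters' processing notes, Bowtie 0.12.8, FastQC and the build sacCer3 were used, with the DHS caller not given in the sources used here. Footprint list names refer to dnase2tf. The authors deposited a score for each DHS and footprint, formula not given, which served here only to rank within a list (footprints: most negative strongest). Coordinates were read as BED and are printed from 1.

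Genes came from an R64 table, strand from the systematic name. Coverage, footprint midpoints and overlaps (at least 1 bp) were computed with numpy 2.4.6, scipy 1.17.1 and pandas 2.3.3 under Python 3.11.15, and were tested on simulated data. Named genes were all 8 members, neighbours touched by their DHS (TOP3, DTD1 and PDC2 were added after values were seen), wider telomere genes with an upstream DHS in 1 strain, and the 2 nearest genes in coverage. Wider genes named beyond that, and single DHS and footprints, were picked after their values were seen. The members and lists were chosen with earlier results of these data known. A planned motif search was not run, since no sequence was used here. Depth is unknown.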

Additional observations from a re-analysis of the deposited data

How the results depend on the processing

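The lists give no replicate and no depth, so a region missing from a list cannot be told from one just under the threshold. No paired analysis was possible because each strain had 1 library. The counts of genes with an upstream DHS stayed at 5 in G170D and 4 in WT with windows of 500 bp, with at least 50 bp of DHS and with lists of the same number, and EST2 was the gene in G170D only in each of the other settings. With windows of 300 bp, and with the stronger 50% of each list, the counts were 4 in G170D and 4 in WT, so the strains were equal. In these settings 1 gene (RIF1) was touched in WT only, against 0. The shares over all genes in these settings were not computed. Upstream coverage over the 8 genes was 50.4% in G170D and 46.05% in WT with 500 bp, 50% and 46.6% in G170D and WT with 300 bp, and 42.3% and 40.05% in G170D and WT with the stronger 50%. In each of these settings the higher value in G170D again rests on EST2. Upstream footprints numbered 46 in G170D and 53 in WT with 500 bp, 27 and 32 in G170D and WT with 300 bp, and 50 and 63 in G170D and WT with the stronger 50%, as fewer bases or regions enter. With lists of the same number, 84 stood in G170D and 86 in WT. Shared footprints fell by construction to 54.2% in G170D and 47.0% in WT when at least 50% of each had to overlap, and with lists of the same number the shares were 57.6% in G170D and 63.8% in WT, which turned round the order of the strains (67.2% and 60.3% in G170D and WT as deposited). Of 90 values of single genes under these settings, 32 were classed as moved, 8 of them up and 24 down. Among those not classed as moved, 45 were equal, 4 were higher and 9 were lower. The settings also included counting footprints by any overlap, and only inside a DHS of the same strain. The latter could change no value, since all footprints lay in such a DHS. Lists of the same number could not change G170D coverage or footprint counts, as the G170D lists were the shorter ones. Part of the equal values was thus fixed in advance and does not show stability. One of the lower values was EST3 upstream footprints in WT, 24 as deposited and 17 with lists of the same number. Upstream coverage over the 8 genes in G170D, 44.0% as deposited and 42.3% with the stronger 50%, was classed as moved. The classes thus do not follow the size of a change and are no measure of stability.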
